A study of Mus musculus with 12 samples.

Results

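The comparison asked, gene by gene, whether the response to low oxygen in mouse lung endothelial cells differed when 2 mixed lineage kinases were missing. The response of a genotype was the mean level in hypoxia minus the mean level in normoxia, and the quantity described is the response of the double knockout minus the response of the wild type, on the log2(FPKM + 1) scale. On that scale, changes of low genes appear smaller than they are. It was computed for all 11378 of 23422 gene identifiers whose mean level reached 1 FPKM (fragments per kilobase of transcript, scaled to sequencing depth) over the 12 libraries, with no choice by response. A positive difference means that hypoxia moved the gene further upwards, or less far downwards, in the double knockout than in the wild type.

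Primary endothelial cells came from the lungs of MLK2-/-MLK3-/- mice (double knockout, KO) and of C57BL/6J mice (wild type, WT). In each genotype monolayers were kept at 1% oxygen for 90 min (hypoxia) or at 21% oxygen (normoxia), which gave 4 groups, KO hypoxia, KO normoxia, WT hypoxia and WT normoxia, with 3 libraries each. All groups grew in serum with endothelial mitogen and heparin. The labels do not say which exons the alleles lack, whether cells of several animals were pooled, or whether the 3 libraries of a group were separate cultures, so each p reflects the spread of these libraries, which may be technical.

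Mixed lineage kinases are MAP kinase kinase kinases that pass stress and cytokine signals through MAP kinase kinases to JNK and p38, whose best known targets are the AP-1 transcription factors. MLK3 can also feed the RAF-ERK branch. When oxygen falls, prolyl hydroxylases stop marking the alpha subunits of the hypoxia-inducible factors (HIF) for destruction. HIF then switches on glycolysis, glucose and lactate transport, angiogenic factors and its own feedback genes, and endothelium also adjusts its growth and vessel-tone programmes.

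Estimated depth was 21100000 to 26000000 fragments per library, and Pearson's r of log2 values across genes was 0.9937 to 0.9955 within groups and 0.9831 to 0.9928 between them. Of 28 pan-endothelial markers 27 passed the filter on level, and Pecam1, an endothelial adhesion molecule, lay between 548.1 and 640.2 FPKM in all libraries. No T and B cell marker of 10 and no neutrophil marker of 7 passed it. Of 17 macrophage markers 7 passed, and their mean relative to the 12-library average was 0.271 to 0.331 in KO hypoxia, 0.178 to 0.267 in KO normoxia, -0.240 to -0.110 in WT hypoxia and -0.393 to -0.249 in WT normoxia (log2 scale). Lyz2, a lysozyme of macrophages, averaged 59.6 FPKM in KO hypoxia, 62.1 in KO normoxia, 24.5 in WT hypoxia and 21.4 in WT normoxia. The part of these markers in the results below was not tested, and in bulk samples fewer cells of a type and less RNA per cell cannot be told apart.

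Few genes were called for a difference between the genotypes in their response to hypoxia. A missing call does not show that a gene responded alike in both. In limma with Benjamini-Hochberg adjustment over all tested genes, 22 genes passed the threshold of 0.05 for the difference, which is 0.193% of the 11378 genes. The difference was positive in 8 of them (0.0703%) and negative in 14 (0.123%). The median difference over all genes was 0.00, with a 5th percentile of -0.31 and a 95th percentile of 0.26. A positive difference was found in 50.9% of genes. The responses themselves were much more widespread: 4468 genes passed the same threshold in the double knockout (39.3%) and 2370 in the wild type (20.8%). The SD of the response over genes was 0.29 in the double knockout and 0.23 in the wild type.

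A wider margin of genes lay near the threshold. Without adjustment p was under 0.05 for 1820 genes (16.0%), of which 886 were positive (7.79%) and 934 negative (8.21%). An adjusted p under 0.1 was found for 259 genes, and one under 0.2 for 925. The smallest adjusted p that missed was 0.0581, shared by Hn1l, Inhbb and Ppp1r35. Size did not order the calls: 31 genes had a difference beyond 1 in either direction, with a median standard error of 0.833, and Map3k10 alone among them was called. By level, 3 of 1884 genes from 1 to 3 FPKM were called and 2 of 1009 genes above 100 FPKM, with median standard errors of 0.148 and 0.0627.

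**Figure D1:**
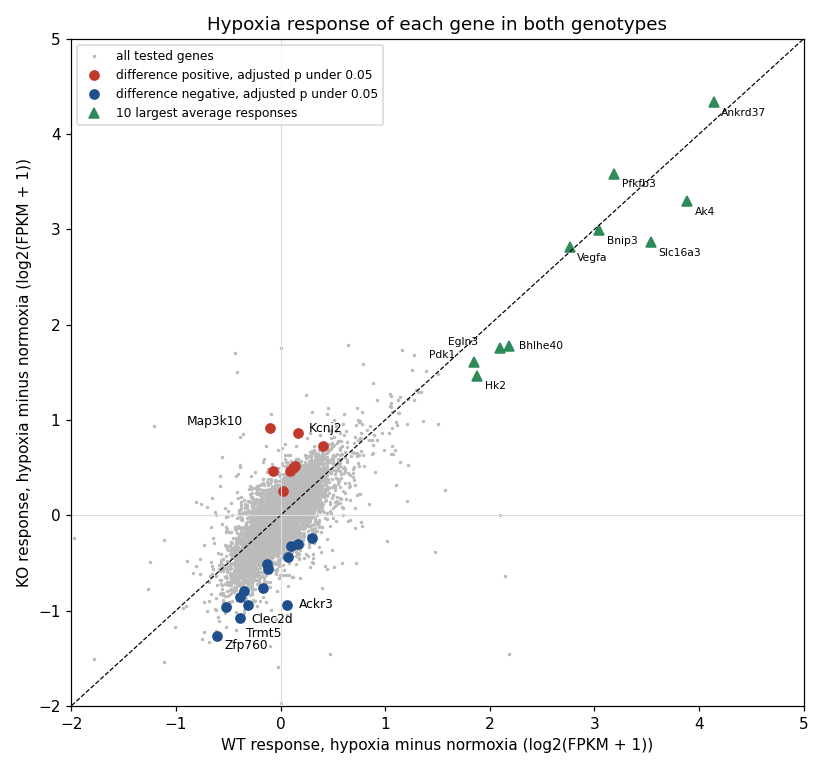
Response to hypoxia of each tested gene in KO cells (vertical axis) against WT cells (horizontal axis), both as hypoxia minus normoxia on the log2(FPKM + 1) scale, with the line of equal response dashed. The 8 genes with a positive and the 14 with a negative difference past the threshold lie beside the cloud of 11378 genes, while the 10 genes with the largest average responses (triangles) lie along the line at the upper right.

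In the 22 called genes it was mostly the double knockout that moved. The KO response passed the threshold in 22 of 22, and the WT response in 9, of which 3 rose and 6 fell. The size of the response was larger in KO cells for 21 genes, the exception being Hpn, and the 2 responses had opposite signs in 7. The 9 pairwise hypoxia-minus-normoxia values of the double knockout lay wholly to one side of the 9 of the wild type for 22 of 22, against 988 genes in all (8.68%). In 20 of the 22 the 3 KO hypoxia libraries lay above or below all 9 other libraries, against 2060 genes in all (18.1%), the exceptions being Map3k10 and Hpn. The genes were called on these same libraries for a large difference. High counts therefore follow in large part from that choice, and they describe the calls without adding support. The calls themselves were fragile, as every gene but Map3k10 lost its call when at least 1 library was left out; the KO-minus-WT difference kept its sign throughout the alternatives that could give it a value.

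**Figure D2:**
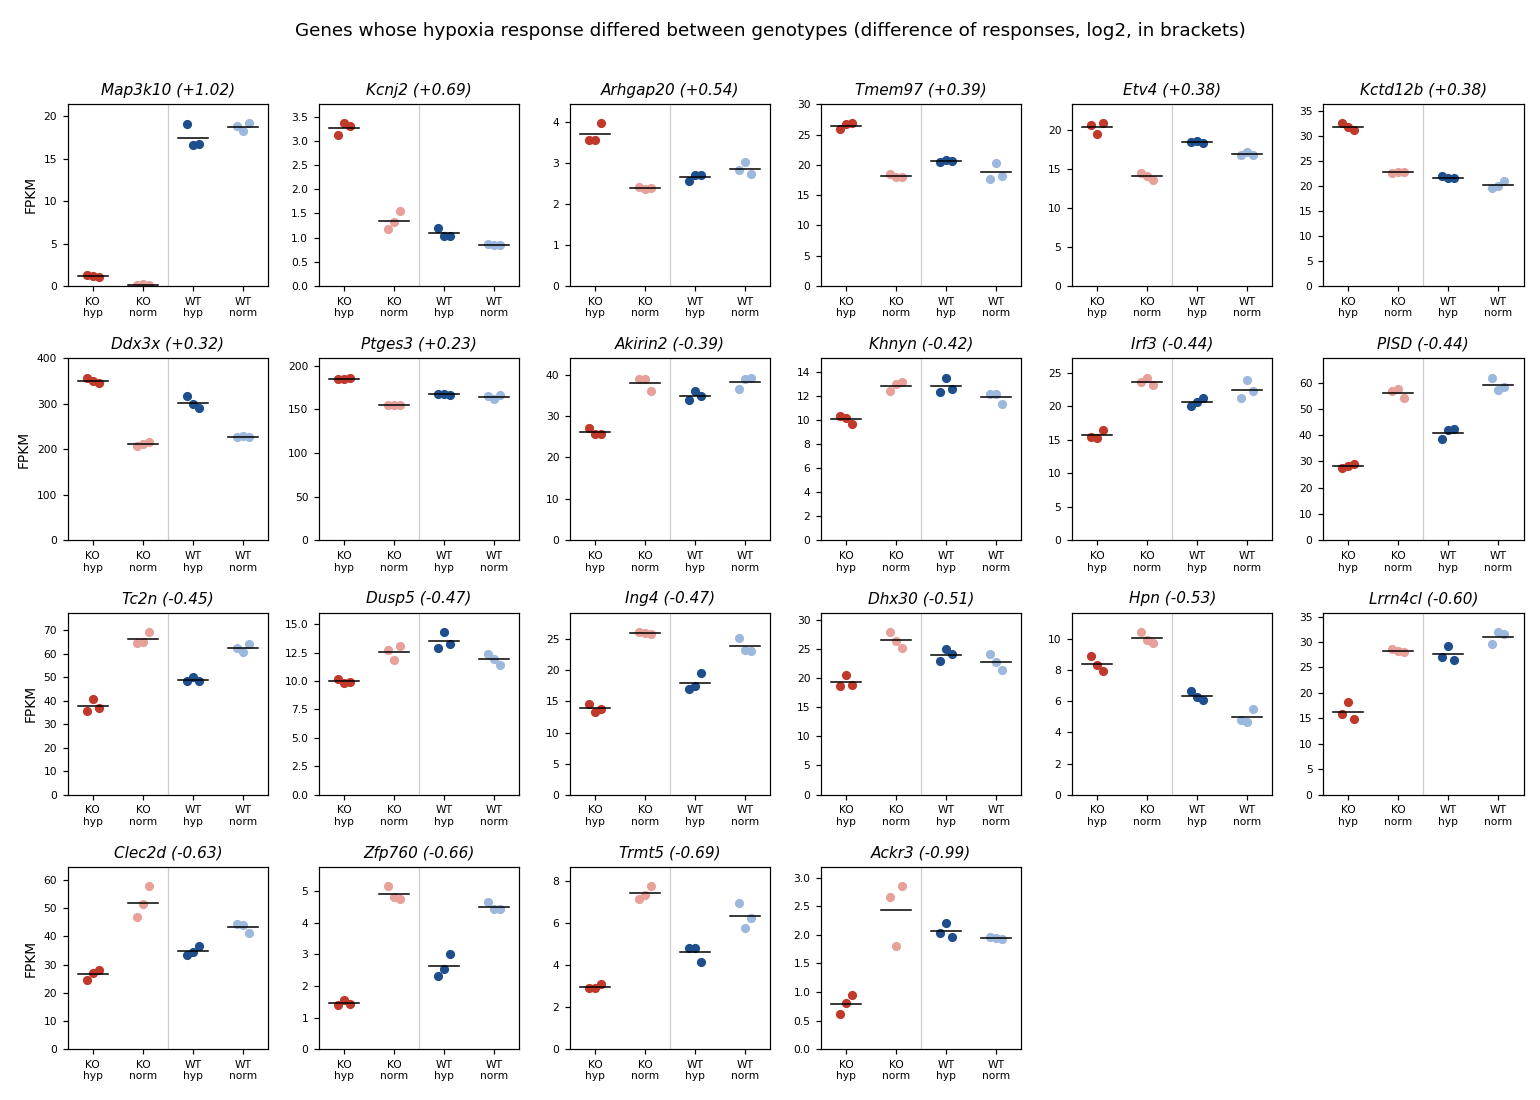
Level of each of the 22 called genes in the 12 libraries (FPKM, linear axes from 0), with KO hypoxia, KO normoxia, WT hypoxia and WT normoxia side by side, 3 points each and a bar at the mean; the difference of responses (log2) is in brackets. In 20 panels the KO hypoxia points lie outside the range of the other 9 libraries.

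Map3k10, which encodes MLK2 and is one of the deleted kinases, had the largest and most stable call, and it lies in the residue of a deleted gene. Its level was 1.34, 1.15 and 1.02 FPKM in KO hypoxia, 0.145, 0.169 and 0.131 FPKM in KO normoxia, 19.1, 16.6 and 16.7 FPKM in WT hypoxia and 18.9, 18.3 and 19.2 FPKM in WT normoxia. The KO libraries were far below the WT libraries at both oxygen levels, yet KO hypoxia and KO normoxia did not overlap. The KO response was 0.92 and the WT response -0.10, so the difference was 1.02 (95% interval 0.80 to 1.24, limma adjusted p = 0.00375). The KO signal came from 1 transcript, ENSMUST00000036453, and the main WT transcript was at 0 in all KO libraries. For ENSMUST00000036453 alone hypoxia added 1.02 FPKM in KO cells and 0.990 FPKM in WT cells, a near-equal step from unequal bases. These were a 7.89-fold and a 1.38-fold change, with log2 responses of 0.92 and 0.34. The called difference is that of the gene sum, which changed by 1.02 FPKM in KO cells and by -1.33 FPKM in WT cells. The main WT transcript, ENSMUST00000138243, changed by -1.97 FPKM in WT cells. The lowest KO library rested on an estimated 4.29 fragments. That estimate used the length of the main WT transcript (1621 bases), which was at 0 in KO cells, so it is only a rough guide there.

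The RefSeq promoter of Map3k10 is shown because the transcript that remained rose in hypoxia in the knockout. It covers the 250 bases before and 50 bases after the start on GRCm38.p6, at chr7:27674532-27674831 on the minus strand, and capitals mark an AP-1 site (TGANTCA) and a hypoxia response element core (ACGTG, read on either strand).
Map3k10: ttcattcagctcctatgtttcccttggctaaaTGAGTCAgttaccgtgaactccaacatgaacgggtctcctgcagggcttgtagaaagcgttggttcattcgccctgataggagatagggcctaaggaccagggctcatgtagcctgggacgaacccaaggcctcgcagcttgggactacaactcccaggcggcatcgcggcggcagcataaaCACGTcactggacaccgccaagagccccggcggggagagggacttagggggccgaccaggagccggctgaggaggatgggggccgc

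Map3k11, which encodes MLK3, did not pass the threshold. It was at 12.2, 11.5 and 11.2 FPKM in KO hypoxia, 11.5, 10.9 and 11.1 FPKM in KO normoxia, 32.4, 34.4 and 31.9 FPKM in WT hypoxia and 36.4, 33.8 and 34.0 FPKM in WT normoxia. Its difference was 0.13 (95% interval -0.02 to 0.28, limma adjusted p = 0.381). Map3k9, which encodes MLK1, lay between 0.328 and 0.455 FPKM and was below the filter. The other tested relatives were Map3k12, with a difference of -0.13 (-0.40 to 0.14), and Zak, with 0.05 (-0.10 to 0.19).

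The ERK branch held a call in each direction. Etv4, an ETS transcription factor of the PEA3 group induced by ERK, was at 20.7, 19.5 and 20.8 FPKM in KO hypoxia, 14.5, 14.1 and 13.6 FPKM in KO normoxia, 18.4, 18.6 and 18.3 FPKM in WT hypoxia and 16.7, 17.1 and 16.8 FPKM in WT normoxia. KO hypoxia was above all other libraries and KO normoxia below them. Etv4 rose by 44.3% in KO hypoxia against a WT change of 9.19% that missed the threshold (limma adjusted p = 0.0530), a difference of 0.38 (0.26 to 0.50, adjusted p = 0.0347). Dusp5, the phosphatase that switches off ERK in the nucleus, went the other way in KO cells. It was at 10.2, 9.84 and 9.93 FPKM in KO hypoxia, 12.7, 11.9 and 13.1 FPKM in KO normoxia, 12.9, 14.3 and 13.3 FPKM in WT hypoxia and 12.4, 11.9 and 11.4 FPKM in WT normoxia. It fell in the double knockout (log2 -0.30, limma adjusted p = 0.000717) and rose in the wild type (log2 0.17, adjusted p = 0.0390), with a difference of -0.47 (-0.63 to -0.31, adjusted p = 0.0347).

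The Dusp5 promoter is shown because its responses were called in opposite directions. It lies at chr19:53528895-53529194 on the plus strand of GRCm38.p6, and capitals mark 2 adjoining CArG boxes, the site of serum response factor, followed by a hypoxia response element core. CArG boxes were in 1.24% of the 8477 promoters of tested genes in the RefSeq table, and the hypoxia response element core in 26.9%.
Dusp5: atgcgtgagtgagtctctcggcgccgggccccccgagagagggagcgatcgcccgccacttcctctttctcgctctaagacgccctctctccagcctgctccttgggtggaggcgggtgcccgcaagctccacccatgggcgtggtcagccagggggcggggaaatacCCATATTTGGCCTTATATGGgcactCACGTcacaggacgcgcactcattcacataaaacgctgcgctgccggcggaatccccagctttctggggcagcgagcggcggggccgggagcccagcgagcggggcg

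The rest of the MAP kinase lists gave no further call. Of 12 tested ERK output genes, 5 had an unadjusted p under 0.05 with a positive difference (41.7%) and 1 with a negative one (8.33%). Over all genes these shares were 7.79% and 8.21%. The median difference of the list was 0.09. Over the alternatives it ran from 0.07 without WT hypoxia 2 to 0.17 over the 7 members that average at least 5 FPKM. Epha2, an ephrin receptor, was at 78.3 FPKM in KO hypoxia and 58.7 in KO normoxia, and at 66.4 in WT hypoxia and 58.7 in WT normoxia, with a difference of 0.23 (0.13 to 0.34, adjusted p = 0.0780). Dusp6, a cytoplasmic ERK phosphatase, had a difference of -0.37 (-0.64 to -0.10, adjusted p = 0.173). Of 13 MAPK phosphatases 1 was positive and 2 negative at that level, with a median of 0.02. Of 29 other kinases of the JNK, p38 and ERK cascades 3 were positive and 2 negative, with a median of -0.01. Map3k7, the TAK1 kinase, was the member of that list with the smallest p, with a difference of 0.20 (0.09 to 0.30, adjusted p = 0.0913). Of 5 JNK scaffolds 1 was negative and none positive, and Spag9, the most abundant, had a difference of 0.07.

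The AP-1 and immediate early genes, the nearest readout of JNK and p38, differed in both directions, though no member passed the threshold. Of 12 tested AP-1 factors 3 were positive and 3 negative at an unadjusted p under 0.05, with a median difference of 0.11 and median responses of 0.33 in KO cells and 0.19 in WT cells. The responses were called higher for 9 of the 12 in KO cells and for 7 in WT cells, and lower for none in either. Over all genes 2233 were called higher (19.6%) and 2235 lower (19.6%) in KO cells, and 1192 higher (10.5%) and 1178 lower (10.4%) in WT cells. Maff, a small MAF protein, averaged 87.5 FPKM in KO hypoxia and 55.2 in KO normoxia, and 105.5 in WT hypoxia and 63.0 in WT normoxia (difference -0.08, -0.27 to 0.11). Of 20 other immediate early genes 4 were positive and 6 negative, with a median of 0.05. Plk2, the most abundant, rose in both genotypes by 35.4% in KO cells and 31.0% in WT cells (difference 0.05, -0.07 to 0.17). Both lists held larger shares in each direction at an unadjusted p under 0.05 than all genes did. For all genes these were 7.79% positive and 8.21% negative. The small medians therefore reflect differences of both signs and do not show that the members responded alike in both genotypes.

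Among surface proteins a potassium channel and a chemokine receptor stood at opposite ends. Kcnj2, which encodes the inward rectifier channel Kir2.1 that sets endothelial membrane potential, was at 3.12, 3.36 and 3.31 FPKM in KO hypoxia, 1.18, 1.33 and 1.54 FPKM in KO normoxia, 1.19, 1.03 and 1.03 FPKM in WT hypoxia and 0.866, 0.851 and 0.837 FPKM in WT normoxia. KO hypoxia stood clear of the other 9 libraries. Kcnj2 rose by 142.0% in KO hypoxia, against a WT change of 27.4% (adjusted p = 0.137), a difference of 0.69 (0.46 to 0.93, limma adjusted p = 0.0347). Ackr3, an atypical receptor that removes the chemokine CXCL12, was at 0.616, 0.804 and 0.942 FPKM in KO hypoxia, 2.67, 1.80 and 2.85 FPKM in KO normoxia, 2.03, 2.21 and 1.97 FPKM in WT hypoxia and 1.96, 1.94 and 1.93 FPKM in WT normoxia. It fell by 67.8% in KO hypoxia and had a WT change of 6.40% (adjusted p = 0.755), a difference of -0.99 (-1.35 to -0.64, limma adjusted p = 0.0354). Its level was low, with an estimated 39.5 fragments in the lowest library.

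Other membrane and signalling genes were called with smaller differences. Arhgap20, a GTPase-activating protein, lay between 3.55 and 3.96 FPKM in KO hypoxia, between 2.36 and 2.41 in KO normoxia, between 2.55 and 2.71 in WT hypoxia and between 2.72 and 3.01 in WT normoxia (difference 0.54, adjusted p = 0.0354). Tmem97, a membrane protein of sterol handling, rose by 45.9% in KO hypoxia, against a WT change of 10.2% that missed the threshold (difference 0.39, adjusted p = 0.0492). Kctd12b, a member of the KCTD family, rose by 40.0% in KO hypoxia, against a WT change of 6.91% that missed it too (difference 0.38, adjusted p = 0.0347). Clec2d, a ligand of an inhibitory receptor of natural killer cells, was at 24.6 to 28.0 FPKM in KO hypoxia, 46.8 to 57.8 in KO normoxia, 33.3 to 36.5 in WT hypoxia and 41.1 to 44.4 in WT normoxia, so it fell in both genotypes and further in the double knockout (difference -0.63, limma adjusted p = 0.0354). Hpn, the membrane serine protease hepsin, was at 7.93 to 8.94 FPKM in KO hypoxia and 9.76 to 10.5 in KO normoxia, against 6.11 to 6.65 in WT hypoxia and 4.69 to 5.50 in WT normoxia. It fell in KO cells and rose in WT cells (difference -0.53, limma adjusted p = 0.0482). Lrrn4cl fell to 14.8 to 18.1 FPKM in KO hypoxia, against 28.0 to 28.6 in KO normoxia, and was at 26.4 to 29.2 in WT hypoxia and 29.6 to 32.0 in WT normoxia (difference -0.60, adjusted p = 0.0347).

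The next called genes are put together by what their products do, after the calls were known, and no list of such genes was tested. Ddx3x, a DEAD-box helicase of translation initiation, rose in both genotypes. It was at 357.8, 350.1 and 345.3 FPKM in KO hypoxia, 206.9, 212.7 and 215.2 FPKM in KO normoxia, 318.3, 300.8 and 290.2 FPKM in WT hypoxia and 227.3, 229.1 and 228.2 FPKM in WT normoxia. The rise was 65.9% in the double knockout and 32.8% in the wild type (difference 0.32, 0.21 to 0.43, limma adjusted p = 0.0347). Ptges3, a co-chaperone of HSP90, was at 185.5, 184.5 and 186.5 FPKM in KO hypoxia, 155.5, 155.1 and 154.8 FPKM in KO normoxia, 168.3, 167.7 and 167.1 FPKM in WT hypoxia and 165.7, 162.0 and 166.4 FPKM in WT normoxia. Its difference, 0.23 (0.15 to 0.31, adjusted p = 0.0347), was the smallest of the calls in size and had the smallest standard error, 0.0352.

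Trmt5, which methylates the base next to the anticodon of some tRNAs, was at 2.90, 2.92 and 3.09 FPKM in KO hypoxia, 7.11, 7.34 and 7.73 FPKM in KO normoxia, 4.81, 4.80 and 4.15 FPKM in WT hypoxia and 6.95, 5.76 and 6.21 FPKM in WT normoxia. It fell in both genotypes, by 59.8% in KO cells and by 27.2% in WT cells (difference -0.69, -0.92 to -0.47, limma adjusted p = 0.0347). Dhx30, a helicase needed for mitochondrial ribosomes, fell by 27.0% in KO hypoxia and had a WT change of 5.21% that missed the threshold (difference -0.51, adjusted p = 0.0354). Dhx30 sums 16 transcripts and overlaps Smarcc1 on the opposite strand. In FPKM its difference was -8.33, and that of the transcript ENSMUST00000199332 alone was -6.24. This transcript averaged 0.000103 FPKM in KO hypoxia, 2.03 in KO normoxia, 4.43 in WT hypoxia and 0.219 in WT normoxia. Other transcripts went both ways, such as ENSMUST00000062368 (-3.05) and ENSMUST00000165596 (2.3). How reads were shared between the transcripts was not tested. Khnyn, known in human cells as a partner of the antiviral protein ZAP, was at 9.73 to 10.4 FPKM in KO hypoxia and 12.4 to 13.2 in KO normoxia, against 12.4 to 13.6 in WT hypoxia and 11.4 to 12.2 in WT normoxia (difference -0.42, adjusted p = 0.0401). Khnyn overlaps Sdr39u1 on the opposite strand, and the use of strand in counting is not given in the sources used here.

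The promoters of Ddx3x and Trmt5 are shown as those of an abundant gene that rose further and a gene that fell further in the double knockout. That of Ddx3x lies at chrX:13280772-13281071 on the plus strand and that of Trmt5 at chr12:73286662-73286961 on the minus strand (GRCm38.p6). Capitals mark 2 hypoxia response element cores in Ddx3x and a cyclic AMP response element (TGACGTCA), which was in 3.42% of all 8477 promoters, in Trmt5.
Ddx3x: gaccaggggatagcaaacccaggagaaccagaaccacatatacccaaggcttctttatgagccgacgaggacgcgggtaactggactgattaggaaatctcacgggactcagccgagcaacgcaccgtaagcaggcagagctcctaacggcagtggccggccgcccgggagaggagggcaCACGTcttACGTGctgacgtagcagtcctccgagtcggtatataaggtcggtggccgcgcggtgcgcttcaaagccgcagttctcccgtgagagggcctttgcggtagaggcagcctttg
Trmt5: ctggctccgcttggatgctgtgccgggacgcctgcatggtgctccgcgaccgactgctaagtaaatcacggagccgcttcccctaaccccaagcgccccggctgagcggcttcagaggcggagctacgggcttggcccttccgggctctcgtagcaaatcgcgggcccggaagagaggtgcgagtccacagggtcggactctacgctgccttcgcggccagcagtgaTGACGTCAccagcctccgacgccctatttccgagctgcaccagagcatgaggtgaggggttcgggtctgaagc

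Over the 18 called genes in the promoter table, 9 held the hypoxia response element core (50.0%), of which 5 were among the 6 with a positive difference and 4 among the 12 with a negative one. A match is a string of letters and is given as a description. The other called promoters by smallest p were those of Ptges3, with a kappa B site, and Tc2n, with none of the motifs searched. Those motifs were the ones named so far, the TEAD site CATTCC, the heat shock element GAANNTTC, the E2F sites TTTCCCGC and TTTGGCGC and the cell cycle homology region TTTGAA, each on both strands. Over the 8477 tested genes in the promoter table AP-1 sites were in 4.55%, kappa B sites in 10.1%, TEAD sites in 11.5% and heat shock elements in 5.59%. The core ACGTG is also part of the E-box CACGTG, so the 2 cannot be told apart by this search.

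The other called regulators of transcription and chromatin had negative differences. Irf3, the factor that starts the type I interferon response, was at 15.4, 15.3 and 16.5 FPKM in KO hypoxia, 23.6, 24.3 and 23.2 FPKM in KO normoxia, 20.0, 20.7 and 21.2 FPKM in WT hypoxia and 21.2, 23.9 and 22.3 FPKM in WT normoxia. It fell by 33.6% in KO hypoxia and its WT change was -8.27% (adjusted p = 0.110), a difference of -0.44 (-0.59 to -0.29, limma adjusted p = 0.0347). Irf3 overlaps Bcl2l12 on the opposite strand. Ing4, a reader of methylated histone H3, fell by 46.6% in KO hypoxia and by 24.4% in WT hypoxia (difference -0.47, adjusted p = 0.0367). Akirin2, a nuclear protein of inflammatory transcription and proteasome import, fell by 30.9% in KO hypoxia, against a WT change of -8.54% (difference -0.39, adjusted p = 0.0354). Zfp760, a zinc finger gene, was at 1.39, 1.57 and 1.44 FPKM in KO hypoxia, 5.16, 4.81 and 4.77 FPKM in KO normoxia, 2.31, 2.55 and 3.02 FPKM in WT hypoxia and 4.65, 4.43 and 4.45 FPKM in WT normoxia, so it fell in both genotypes (difference -0.66, limma adjusted p = 0.0354).

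Tc2n and PISD also fell in both genotypes and further in the double knockout. Tc2n, a protein with tandem C2 domains, fell by 43.0% in KO hypoxia and by 21.6% in WT hypoxia (difference -0.45, adjusted p = 0.0347). PISD, listed under that spelling on a scaffold outside the chromosomes, carries the name of phosphatidylserine decarboxylase. It was at 27.7 to 29.1 FPKM in KO hypoxia, 54.1 to 57.5 in KO normoxia, 38.6 to 42.4 in WT hypoxia and 57.3 to 61.9 in WT normoxia (difference -0.44, limma adjusted p = 0.0347). The near-identical Pisd on chromosome 5 had a difference of -0.01 (-0.13 to 0.11), so the assignment of reads between the copies, and with it this call, is uncertain.

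None of the 10 genes with the largest average response to hypoxia passed the threshold for the difference. Over all genes 0.193% passed it, so a set of 10 would seldom hold a call. The unadjusted limma p was under 0.05 with a negative difference for Slc16a3, Egln3, Pdk1, Hk2 and Ak4, and with a positive one for Pfkfb3. It was above 0.05 for Ankrd37, Bnip3, Vegfa and Bhlhe40. Over all genes 8.21% were negative and 7.79% positive at that level. Ankrd37, an ankyrin repeat gene of the HIF programme, averaged 76.1 FPKM in KO hypoxia and 2.83 in KO normoxia, and 72.8 in WT hypoxia and 3.22 in WT normoxia, a difference of 0.20 (95% interval -0.19 to 0.59). Bnip3, which marks mitochondria for removal, had 105.3 and 12.3 FPKM in KO hypoxia and normoxia and 111.2 and 12.6 in WT hypoxia and normoxia (difference -0.05, -0.25 to 0.14). Vegfa, the main endothelial growth factor, had a difference of 0.05 with a wide interval of -0.47 to 0.58. Of the 10 genes, 3 had a positive and 7 a negative difference. The intervals of Bnip3 and Ankrd37 still allow differences of up to 0.25 and 0.59 in size.

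By size the negative differences in that group were led by Slc16a3 and Ak4, followed by Hk2 (-0.41), Bhlhe40 (-0.40) and Egln3. Slc16a3, the lactate exporter MCT4, averaged 22.4 FPKM in KO hypoxia and 2.21 in KO normoxia, against 25.6 in WT hypoxia and 1.29 in WT normoxia, with a difference of -0.67 (-0.99 to -0.35, limma adjusted p = 0.0787). The KO mean was above the WT mean in normoxia and below it in hypoxia. Egln3, the prolyl hydroxylase of HIF feedback, had a difference of -0.34 (-0.53 to -0.15, adjusted p = 0.101), and Ak4, a mitochondrial adenylate kinase, of -0.59 (-1.09 to -0.08, adjusted p = 0.241). Pfkfb3, which speeds glycolysis in sprouting endothelium, had 31.1 and 1.67 FPKM in KO hypoxia and normoxia and 25.3 and 1.86 in WT hypoxia and normoxia (difference 0.40, 0.02 to 0.78, adjusted p = 0.290).

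As lists, the HIF targets and glycolysis genes had median responses that were larger in size than their median differences. Both lists held more negative than positive differences. Of 38 tested HIF targets outside glycolysis, 29 rose and 3 fell in KO cells and 31 rose and none fell in WT cells. Over all genes 19.6% rose and 19.6% fell in KO cells, and 10.5% rose and 10.4% fell in WT cells. For these HIF targets the values were as follows. The median response was 0.60 in KO cells and 0.75 in WT cells, the median difference -0.06. A negative difference was found in 28 of the 38. At an unadjusted p under 0.05, 7 members were negative (18.4%) and 2 positive (5.26%). Over all genes 8.21% were negative and 7.79% positive at that level. Over the alternatives the median of the HIF targets ran from -0.11 without WT hypoxia 3 to -0.05 without WT normoxia 1. It was -0.10 with quantile normalization or array weights. Members with the smallest p, chosen after their values were seen, were Hilpda, a lipid droplet protein, at 30.9 FPKM in KO hypoxia and 21.0 in KO normoxia against 49.6 in WT hypoxia and 20.7 in WT normoxia (difference -0.69, adjusted p = 0.0780), and Ndrg1 (difference -0.41, adjusted p = 0.0787). Of 21 glycolysis and glucose uptake genes 18 rose in each genotype and none fell. For the difference, 4 of these 21 were negative (19.05%) and 2 positive (9.52%) at an unadjusted p under 0.05. Their median response was 0.67 in KO cells and 0.64 in WT cells, with a median difference of -0.03 that ran from -0.04 to 0.02 over the alternatives and was positive with the GC and length trend removed.

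**Figure D3:**
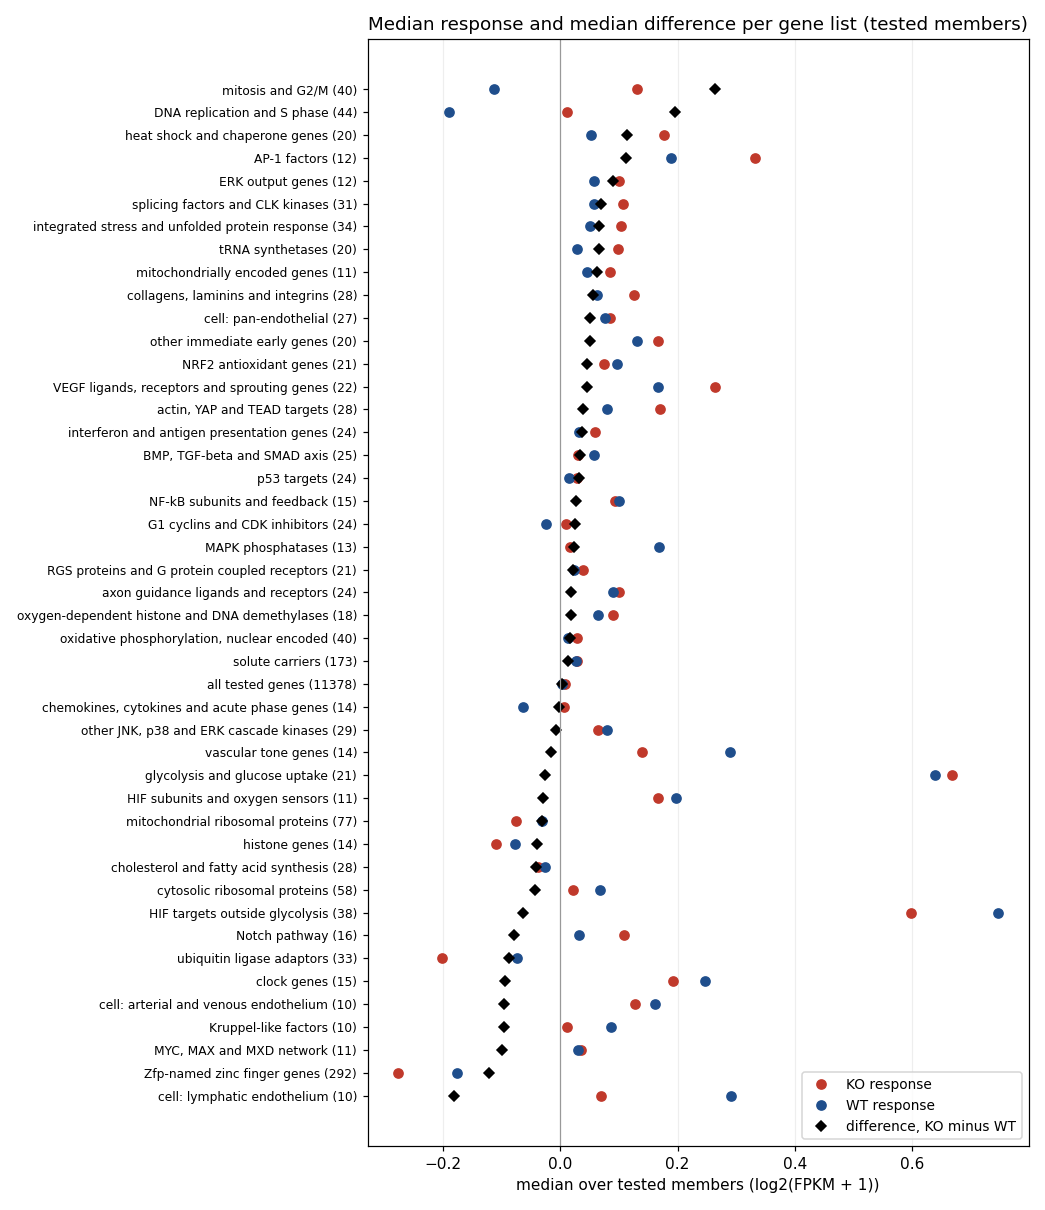
Median response in KO cells, median response in WT cells and median difference (KO minus WT) for each gene list with at least 10 tested members, on the log2(FPKM + 1) scale, ordered by the difference; the number of tested members is in brackets. The HIF and glycolysis lists have the largest responses and median differences of -0.06 and -0.03, while mitosis and DNA replication have the largest positive median differences.

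Cell cycle genes had positive differences as lists, though no member passed the threshold. Of 40 mitosis and G2/M genes, 25 had an unadjusted p under 0.05 with a positive difference (62.5%) and none with a negative one. Over all genes 7.79% were positive and 8.21% negative at that level. The median difference of the mitosis list was 0.26 beside 0.00 over all genes. Its median response was 0.13 in KO cells and -0.11 in WT cells. In KO cells 12 members rose and 2 fell, and in WT cells none rose and 9 fell, beside 19.6% of all genes in each direction in KO cells and 10.5% higher and 10.4% lower in WT cells. Over both directions these shares of the list were near those of all genes, 39.3% and 20.8%. Of 44 DNA replication and S phase genes 20 were positive at that level (45.5%) and none negative, all 44 had a positive difference, and the median was 0.19. Their median response was 0.01 in KO cells and -0.19 in WT cells, where 23 fell and none rose. The members of a list share the same 12 libraries, so these counts are not independent observations.

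The levels in each library show where these differences lay. Relative to the 12-library average, the mean of the mitosis genes was 0.00, -0.07 and 0.03 in KO hypoxia, -0.14, -0.14 and -0.11 in KO normoxia, 0.01, -0.01 and 0.05 in WT hypoxia and 0.06, 0.16 and 0.15 in WT normoxia (log2 scale). The 2 hypoxia groups overlapped, and the 2 normoxia groups stood apart on either side of them. For the S phase genes the means were -0.03, -0.07 and 0.01 in KO hypoxia, -0.05, -0.06 and 0.02 in KO normoxia, -0.07, -0.09 and -0.02 in WT hypoxia and 0.09, 0.16 and 0.12 in WT normoxia. There, WT normoxia lay above the other 9 libraries, which overlapped.

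Single cell cycle genes had differences of modest size. Tpx2, a spindle assembly factor, averaged 13.0 FPKM in KO hypoxia and 11.6 in KO normoxia, against 12.9 in WT hypoxia and 14.9 in WT normoxia (difference 0.34, 0.18 to 0.49, limma adjusted p = 0.0780). Prc1, which bundles microtubules of the central spindle, averaged 27.2 and 23.4 FPKM in KO hypoxia and normoxia against 28.6 and 30.2 in WT hypoxia and normoxia (0.29, adjusted p = 0.0844). Uhrf1, which brings the DNA methyltransferase to replicated DNA, averaged 17.4 and 16.3 FPKM in KO hypoxia and normoxia against 16.5 and 21.7 in WT hypoxia and normoxia (0.46, adjusted p = 0.0978). These 3 were chosen after their values were seen. By the rule for naming genes, the most abundant members were Bub3, of the spindle checkpoint, with a difference of 0.05 (-0.06 to 0.17), and Pcna, the replication clamp, with 0.10 (-0.01 to 0.20).

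The promoters of both lists were searched as well. The cell cycle homology region TTTGAA, a known element of mitotic promoters, was in 23 of the 33 mitosis promoters in the table (69.7%), against 11.5% of all 8477. E2F sites were in 11 of 35 S phase promoters (31.4%), against 3.31% of all. Both motifs and the promoter shown were added after the values of the lists were known. The Prc1 promoter, at chr7:80294201-80294500 on the plus strand of GRCm38.p6, shows the element in capitals.
Prc1: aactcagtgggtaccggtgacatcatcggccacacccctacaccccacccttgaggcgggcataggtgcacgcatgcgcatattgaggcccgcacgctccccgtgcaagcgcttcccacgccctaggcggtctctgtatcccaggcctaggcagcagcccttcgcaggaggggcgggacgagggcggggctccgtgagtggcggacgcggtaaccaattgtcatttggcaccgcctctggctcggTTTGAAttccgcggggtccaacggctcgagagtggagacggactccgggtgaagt

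**Figure D4:**
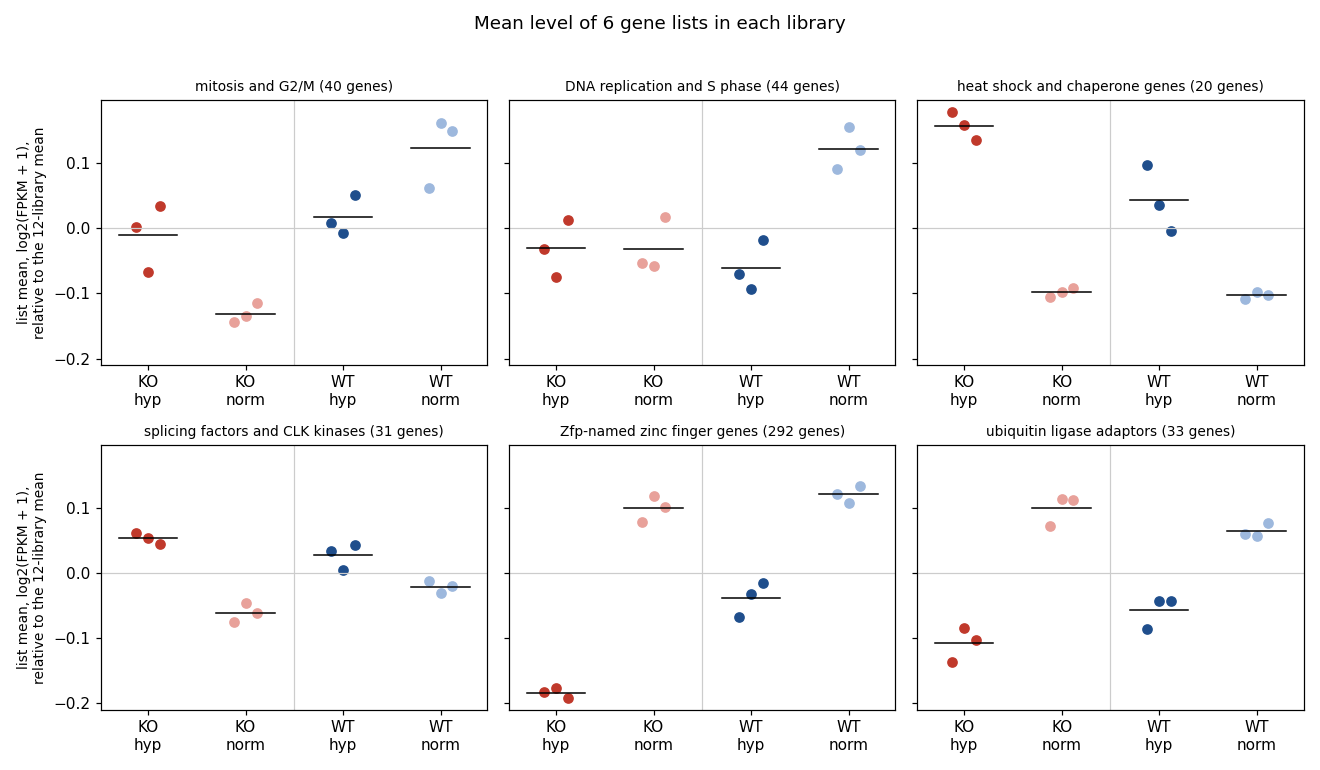
Mean level of 6 gene lists in each of the 12 libraries, relative to the mean over all libraries (log2(FPKM + 1)), with KO hypoxia, KO normoxia, WT hypoxia and WT normoxia side by side, 3 points each and a bar at the mean. WT normoxia is highest for the mitosis and S phase lists, and KO hypoxia is lowest for the zinc finger list and highest for the heat shock list.

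Heat shock and splicing genes leaned to the positive side. Of 20 heat shock and chaperone genes 8 were positive at an unadjusted p under 0.05 (40.0%) and none negative, with a median difference of 0.11. Over all genes 7.79% were positive and 8.21% negative at that level. In KO cells 13 members rose and none fell, and in WT cells 7 rose and 1 fell. Over all genes 19.6% rose and 19.6% fell in KO cells, and 10.5% rose and 10.4% fell in WT cells. Hspa4, a chaperone of the HSP110 family, averaged 108.4 FPKM in KO hypoxia and 92.8 in KO normoxia, against 98.0 in WT hypoxia and 94.1 in WT normoxia (difference 0.16, adjusted p = 0.0975), and was chosen after its value was seen. Hspa8, the most abundant, had a difference of 0.02 (-0.10 to 0.13). Of 31 splicing factors and CLK kinases 10 were positive (32.3%) and 3 negative (9.68%), with a median of 0.07. Srsf6, at 74.8 and 59.7 FPKM in KO hypoxia and normoxia against 63.4 and 60.9 in WT hypoxia and normoxia, had an adjusted p of 0.0610 (difference 0.26, chosen after its value was seen). Of 20 tRNA synthetases 19 had a positive difference, 3 of them at an unadjusted p under 0.05, with a median of 0.07.

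Zinc finger genes leaned to the negative side. Of 292 tested genes with a Zfp name, 54 were negative at an unadjusted p under 0.05 (18.5%) and 9 positive (3.08%), beside 8.21% and 7.79% of all genes, and 219 had a negative difference. The median difference was -0.12, from median responses of -0.28 in KO cells and -0.18 in WT cells. In KO cells 165 fell and 13 rose, and in WT cells 88 fell and 7 rose. Over all genes 19.6% were called in each direction in KO cells, and 10.4% lower and 10.5% higher in WT cells. The mean of the list was -0.18, -0.18 and -0.19 in KO hypoxia, 0.08, 0.12 and 0.10 in KO normoxia, -0.07, -0.03 and -0.02 in WT hypoxia and 0.12, 0.11 and 0.13 in WT normoxia. The normoxia groups overlapped and the KO hypoxia libraries were the lowest 3. Zfp329 followed Zfp760 by p, at 3.17 and 7.43 FPKM in KO hypoxia and normoxia against 4.85 and 6.84 in WT hypoxia and normoxia (difference -0.60, adjusted p = 0.0787).

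Ubiquitin ligase adaptors had overlapping groups. Their mean was -0.14 to -0.08 in KO hypoxia, 0.07 to 0.11 in KO normoxia, -0.09 to -0.04 in WT hypoxia and 0.06 to 0.08 in WT normoxia. The overlap was narrow, between KO hypoxia 2 (-0.0836) and WT hypoxia 1 (-0.0856), and between KO normoxia 1 (0.0724) and WT normoxia 3 (0.0764). Of 33 tested, 10 were negative at an unadjusted p under 0.05 (30.3%) and 1 positive (3.03%), beside 8.21% and 7.79% of all genes. The median difference was -0.09, and ran from -0.11 to -0.05 over the alternatives. In KO cells 18 fell and 4 rose, and in WT cells 10 fell and 3 rose. Over all genes 19.6% fell and 19.6% rose in KO cells, and 10.4% fell and 10.5% rose in WT cells. Klhl36, a Kelch adaptor chosen after its value was seen, averaged 3.56 and 10.1 FPKM in KO hypoxia and normoxia against 5.09 and 9.26 in WT hypoxia and normoxia (difference -0.54, adjusted p = 0.0831). Kctd10, the most abundant, had a difference of -0.03 (-0.13 to 0.08). Cytosolic ribosomal proteins had small differences: 53 of 58 had a negative difference, but the median was -0.04 and 1 member had an unadjusted p under 0.05.

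Vessel genes gave no call outside Ackr3. Of 22 VEGF ligands, receptors and sprouting genes 4 were positive (18.2%) and none negative at an unadjusted p under 0.05, with a median difference of 0.05. Over all genes 7.79% were positive and 8.21% negative at that level. Angpt2, the TIE2 ligand stored in endothelium, had a difference of -0.03 (-0.14 to 0.08). Of 16 Notch pathway genes 1 was positive and 3 negative, with a median of -0.08. Hey1, a Notch effector of arterial identity chosen after its value was seen, averaged 1.07 FPKM in KO hypoxia and 0.864 in KO normoxia, against 4.72 in WT hypoxia and 1.43 in WT normoxia (difference -1.06, -1.55 to -0.57, limma adjusted p = 0.0780). Of 10 Kruppel-like factors 3 were negative and none positive. Klf2, the factor induced by blood flow, averaged 2.59 and 2.72 FPKM in KO hypoxia and normoxia against 5.67 and 3.15 in WT hypoxia and normoxia (difference -0.72, adjusted p = 0.0971), and was likewise chosen after its value was seen.

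Subtype markers of endothelium gave no call. Of the 10 tested arterial and venous markers, Hey1 among them, 6 had a negative difference, 4 of them at an unadjusted p under 0.05, and 4 a positive one, none of them at that level, with a highest difference of 0.38 and a median of -0.10. Their mean was -0.05 to -0.03 in KO hypoxia, -0.24 to -0.13 in KO normoxia, 0.21 to 0.31 in WT hypoxia and -0.11 to -0.01 in WT normoxia. The 10 lymphatic markers had 3 negative members and a median of -0.18, with means of -0.30 to -0.03 in KO hypoxia, -0.30 to -0.15 in KO normoxia, 0.15 to 0.44 in WT hypoxia and -0.09 to 0.14 in WT normoxia. Lyve1, the most abundant of them, averaged 264.9 and 260.9 FPKM in KO hypoxia and normoxia against 390.3 and 344.6 in WT hypoxia and normoxia (difference -0.15, -0.36 to 0.06). In both lists WT hypoxia lay above the other 9 libraries. Over all genes 8.21% were negative at an unadjusted p under 0.05. The 27 pan-endothelial markers had 3 positive and 4 negative members and a median of 0.05. The part of subtype composition in the called genes was not tested.

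**Figure D5:**
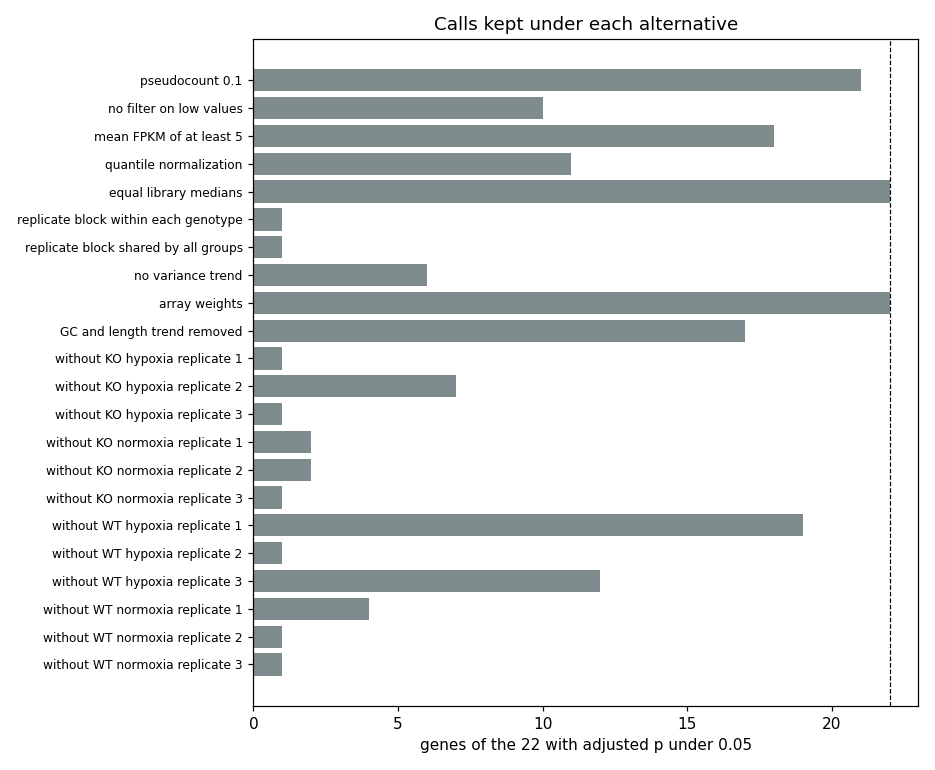
Number of the 22 called genes that kept an adjusted p under 0.05 (horizontal axis) under each alternative and each omission of 1 library (rows), with the dashed line at 22. All 22 were kept with equal library medians and with array weights, and 1 gene, Map3k10, when some single libraries were left out or a replicate block was fitted.

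How far the calls rest on single libraries was uneven. Without 1 library between 1 and 39 genes were called for the difference, the lowest without KO hypoxia 3, KO normoxia 3, WT normoxia 2 or WT normoxia 3 and the highest without WT hypoxia 1. Of the 22, 19 were kept without WT hypoxia 1, 12 without WT hypoxia 3 and 7 without KO hypoxia 2, and no more than 4 without any other library. Map3k10 was kept in 12 of 12 omissions, and Kctd12b and PISD, the next, in 4.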

How the data were processed

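RNA of 12 libraries (RNeasy Plus kit, NEBNext Ultra kit, per the labels' protocols) was sequenced, and the aligner was TopHat2, per the submitters' processing notes. For each of 52655 transcripts an FPKM value was deposited by the authors. The aligner's version, the build, the annotation, the quantifying tool and the use of strand were not given in the sources used here. FPKM was summed per gene identifier, and 11378 genes averaging 1 FPKM or more were tested on log2(FPKM + 1).

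No counts were used. The group means of all libraries entered 1 linear model (limma 3.58.1, R 4.3.3) with 8 residual degrees of freedom, a variance trend and Benjamini-Hochberg adjustment within each contrast. Intervals are 95%. Depth was estimated from the steps of low values in 9560 single-transcript genes after taking 275 bases off each transcript (88.0 to 91.1% within 0.1 of a whole fragment). GENCODE M21 (GRCm38), with 95.2% of the transcript identifiers, gave positions, lengths and GC content, and promoters came from RefSeq (GRCm38.p6), which matched 18 of the 22 called genes.

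The rule named the deleted kinases with Map3k9, called genes by size, p and level, and from each of 57 lists up to 2 called members, or the most abundant member as values. Genes outside it are said to be chosen after their values were seen. The comparison, members and lists were chosen with earlier results of these data known, so no pattern here is independent support for them. Alternatives were a pseudocount of 0.1, no filter or one at 5 FPKM, quantile normalization, equal medians, array weights, no variance trend, replicate blocks, single transcripts, each library left out and, chosen after seeing the data, GC and length trends removed.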

Additional observations from a re-analysis of the deposited data

Results flagged for a closer look

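Each of the 22 genes is listed because the difference between the hypoxia responses of the 2 genotypes was itself tested and passed (limma, adjusted p under 0.05 over 11378 genes). Groups of 3 libraries are too small for a check of single outlying samples. The differences, KO minus WT on the log2(FPKM + 1) scale, were positive for Map3k10 (1.02), Kcnj2 (0.692), Arhgap20 (0.544), Tmem97 (0.385), Etv4 (0.379), Kctd12b (0.376), Ddx3x (0.321) and Ptges3 (0.230). They were negative for Akirin2 (-0.391), Khnyn (-0.422), Irf3 (-0.443), PISD (-0.444), Tc2n (-0.451), Dusp5 (-0.472), Ing4 (-0.473), Dhx30 (-0.507), Hpn (-0.531), Lrrn4cl (-0.599), Clec2d (-0.633), Zfp760 (-0.656), Trmt5 (-0.694) and Ackr3 (-0.995).

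In 7 of the 22 the 2 responses had opposite signs, and in Dusp5 and Hpn both were called. The values of Map3k10 come from a deleted gene, and that of PISD from one of a pair of near-identical copies.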

How the results depend on the processing

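The number of genes called for the difference was 22, and it was 12 with quantile normalization, 6 without a variance trend, 153 with array weights and 0 with each transcript on its own (limma, 2168 of 18090 transcripts at an unadjusted p under 0.05). With 1 library left out it ran from 1 to 39, and the count for the WT response, 2370 in all, from 1382 without WT hypoxia 1 and 1495 without WT hypoxia 2 to 2393 without KO normoxia 1. Of the 22, 11 kept their call with quantile normalization, 6 without the trend, 22 with array weights and 10 without a filter on level, which called 19. A pseudocount of 0.1 kept 21, equal medians 22, and removal of the GC and length trend 17 of 21. The mean of at least 5 FPKM kept 18 of 18. No difference of a called gene changed sign, and over the alternatives 181 values over all called genes kept the call and 298 lost it. The causes were not tested. The median difference of the mitosis list ran from 0.239 to 0.283, that of the S phase list from 0.152 to 0.225 and that of the zinc finger list from -0.160 to -0.100.

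The labels do not say whether the replicate numbers pair the libraries. The r of the deviations of same-numbered libraries ran from -0.0841 to 0.167. It cannot settle the pairing, as each deviation also holds the spread of its own library. The replicate block within each genotype gave 2 calls and the shared block 1, and each kept 1 of the 22, Map3k10. Depth limits Map3k10 in KO cells and Ackr3, which rest on few fragments.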

Other observations

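Gene lists not described so far held no called gene except Ackr3 among 21 RGS proteins and G protein coupled receptors (median difference 0.02). Stress lists were mixed. Of 34 genes of the integrated stress and unfolded protein response 7 were positive (20.6%) and 4 negative (11.8%) at an unadjusted p under 0.05. Over all genes 7.79% were positive and 8.21% negative at that level. The median difference of the stress response list was 0.07. Nupr1, a stress-induced chromatin protein chosen after its value was seen, averaged 160.2 FPKM in KO hypoxia and 47.2 in KO normoxia, against 136.5 in WT hypoxia and 59.5 in WT normoxia (difference 0.58, 0.18 to 0.98, limma adjusted p = 0.153). Cebpb, likewise, averaged 54.1 and 57.7 FPKM in KO hypoxia and normoxia against 65.4 and 51.3 in WT hypoxia and normoxia (-0.43, adjusted p = 0.0998). Of 21 NRF2 antioxidant genes 3 were positive (14.3%) and 2 negative (9.52%), with a median of 0.05. Of 24 p53 targets 4 were positive (16.7%) and 2 negative (8.33%), with a median of 0.03. Of 24 G1 cyclins and CDK inhibitors 3 were positive (12.5%) and 1 negative (4.17%), with a median of 0.03. Of 28 actin, YAP and TEAD targets 5 were positive (17.9%) and 1 negative (3.57%), with a median of 0.04. Actb, the most abundant of the last list, had a difference of 0.15 (0.01 to 0.28).

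Medians of the oxygen sensing and metabolism lists were small. Of 11 HIF subunits and oxygen sensors 1 was positive and 1 negative (9.09% each, median -0.03) at an unadjusted p under 0.05. Over all genes 7.79% were positive and 8.21% negative at that level. Hif1a averaged 160.8 FPKM in KO hypoxia and 105.2 in KO normoxia, against 137.2 in WT hypoxia and 100.5 in WT normoxia. Its difference, 0.16 (0.02 to 0.31), missed the threshold. The medians were 0.02 for 18 oxygen-dependent demethylases and for 40 nuclear genes of oxidative phosphorylation, 0.06 for 11 mitochondrially encoded genes, -0.03 for 77 mitochondrial ribosomal proteins and -0.04 for 28 genes of cholesterol and fatty acid synthesis. They were 0.01 for 173 solute carriers, -0.04 for 14 histone genes and -0.03 for 8 noncoding RNAs. The median was -0.09 for 15 clock genes, of which 11 had a negative difference and 2 of those an unadjusted p under 0.05 (13.3%), and -0.10 for 11 genes of the MYC network, of which 9 had a negative difference and 3 of those an unadjusted p under 0.05 (27.3%), beside 8.21% of all genes.

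Medians of the inflammatory lists were 0.03 for 15 NF-kB genes and 0.04 for 24 interferon and antigen presentation genes. They were 0.06 for 9 leukocyte adhesion molecules and 0.00 for 14 chemokines, cytokines and acute phase genes. Other medians were 0.02 for 24 axon guidance genes and 0.06 for 28 collagens, laminins and integrins. For 25 genes of the BMP and TGF-beta axis the median was 0.03, and for 14 vascular tone genes -0.02. The vascular tone genes differed in both directions, from -0.45 to 0.50. At an unadjusted p under 0.05, 3 of these 14 were positive (21.4%) and 4 negative (28.6%), beside 7.79% and 8.21% of all genes. Few markers of other cells were tested: 3 of 12 for smooth muscle and pericytes (median -0.10), 4 of 13 for fibroblasts (0.11), 4 of 13 for epithelium (0.08), 1 of 6 for mesothelium (-0.52, Krt19), 2 of 10 for erythroid cells and platelets (0.07), 4 of 14 for lung capillaries (-0.28) and 7 of 17 for macrophages (-0.18).

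Within 5 Mb of Map3k10, 1 of 132 tested genes was called (Hpn, 3.44 Mb away) and 15.9% had an unadjusted p under 0.05, and within 5 Mb of Map3k11 1 of 165 was called (Lrrn4cl, 3.16 Mb away) and 17.0%. Across 10802 genes, which are not independent replicates, Spearman's rho of the difference was 0.163 with transcript length and -0.177 with GC content. The median difference was -0.03 in the shortest 2163 and 0.05 in the longest 2161 of these genes.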
